A study of Mus musculus with 4 samples.

Results

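The genes described here encode 7 proteins that bind cytokine mRNAs and shorten their life: the zinc finger proteins Zfp36 (tristetraprolin), Zfp36l1 and Zfp36l2, the endoribonucleases Zc3h12a (Regnase-1) and Zc3h12c (Regnase-3), and the Roquin proteins Rc3h1 and Rc3h2. They were chosen by name, as every array probe that is not a control and whose annotated transcript belongs to one of these symbols. This rule found 10 probes for the 7 genes, among 23451 genes that had a value. The RNA came from bone marrow-derived dendritic cells (BMDCs) of male C57BL/6J wild-type mice, grown from femur marrow with GM-CSF at 10 ng/ml in MEM that held 10% FBS, and collected on day 6. It was measured on 4 single-colour Agilent arrays, 1 for each condition: medium without stimulation, LPS at 100 ng/ml, LA at 20 mM, and LPS and LA together at those doses. LPS is bacterial lipopolysaccharide, an agonist of Toll-like receptor 4, and LA is named L-(+)-LA in the labels of a series whose title speaks of lactate. The treatments lasted 4 h. The labels give no time for medium, no pH for LA and no number of mice, and GM-CSF cultures of marrow hold myeloid cells other than dendritic cells. The comparisons ask how these genes differ with each agent and with both.

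With 1 array per condition there is no spread between replicates, so no difference below has a test or a p-value. Each level is a probe's signal over the 75th percentile of its array, on the log2 scale. The error printed with a level is the spot error that the scanner software estimated, 0.14 log2 units for most member probes and about 0.20 for a difference of 2 arrays. It covers the spot and not the culture, the RNA or the labelling. Repeat spots of 1 probe differed little: over the 300 probes with 10 spots on each array the median SD was 0.05 log2 units. A gene counted as measured where neither array of a comparison had its probe near background (the software's flag for well above background), and as higher or lower when it differed at least 2-fold, that is by 1 log2 unit. Where a gene had several probes, the brightest gave its value.

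Cytokine mRNAs carry elements in their tails that mark them for rapid decay. The Zfp36 family binds AU-rich elements and recruits the CCR4-NOT complex, which removes the poly(A) tail. The Regnase and Roquin proteins recognise stem-loops, which Regnase-1 cleaves and at which Roquin recruits the deadenylase. In myeloid cells these factors restrain the output of TNF, IL-6 and other mediators, and several of them are themselves induced by the signals that induce the cytokines.

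The 250 bases before the annotated start are shown for 3 members to let a reader set the sequence beside the array values: Zfp36 and Zc3h12a, which were higher on the LPS array than on the other arrays, and Zfp36l1, which was lower on it. They are the RefSeq sequences of mouse build GRCm38.p6, written 5′ to 3′ on the gene's own strand, which is the minus strand for all 3 (Zfp36 at chr7:28379229-28379478, Zc3h12a at chr4:125127882-125128131 and Zfp36l1 at chr12:80113014-80113263). Capitals mark matches to any of 6 motifs that were searched on both strands.
Zfp36: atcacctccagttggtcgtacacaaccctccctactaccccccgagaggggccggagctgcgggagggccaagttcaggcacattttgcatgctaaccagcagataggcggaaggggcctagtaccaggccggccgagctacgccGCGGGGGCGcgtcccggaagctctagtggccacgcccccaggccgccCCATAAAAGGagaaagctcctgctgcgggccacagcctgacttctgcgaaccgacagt
Zc3h12a: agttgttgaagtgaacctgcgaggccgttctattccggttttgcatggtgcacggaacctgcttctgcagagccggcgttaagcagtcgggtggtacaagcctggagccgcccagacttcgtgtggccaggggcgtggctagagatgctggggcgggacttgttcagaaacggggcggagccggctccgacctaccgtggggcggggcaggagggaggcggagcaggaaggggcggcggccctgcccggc
Zfp36l1: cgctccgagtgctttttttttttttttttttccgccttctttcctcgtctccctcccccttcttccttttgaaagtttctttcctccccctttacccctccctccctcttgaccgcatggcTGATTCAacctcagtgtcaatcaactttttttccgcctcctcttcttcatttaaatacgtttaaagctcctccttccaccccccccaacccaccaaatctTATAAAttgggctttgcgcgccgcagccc

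The Zfp36 window held 2 matches. The serum response element consensus, given here by name alone, lay at bases -58 to -49 from the start and occurs in 1.47% of the 32851 windows of this length in the RefSeq table. The EGR pattern GCGNGGGCG lay at bases -105 to -97 and occurs in 4.7% of windows. The Zfp36l1 window held the AP-1 pattern TGANTCA at bases -129 to -123 (6.75% of windows) and TATAAA at bases -29 to -24 (12.4% of windows). The Zc3h12a window held none of the 6 patterns, and the CRE TGACGTCA (1.55% of windows) was in none of the 7 windows that the table gives for 6 of the members. The NF-kB consensus, found in 7.25% of windows, matched in 1 member window, that of Zc3h12c at bases -236 to -227. No match overlapped another, and these are matches of letters that show no binding.

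Zfp36 encodes tristetraprolin, the founding member of its family and a binder of the AU-rich elements of Tnf mRNA. The gene lies at chr7:28376784-28379228 (GRCm38.p6, as for all members). Its level was 5.41 ± 0.14 (spot error) in medium, 7.26 with LPS, 5.29 with LA alone and 5.26 with both agents, from processed intensities of 7583, 26627, 6176 and 5574. The LPS array stood alone above the other 3, which lay within 0.15 log2 units of each other. Zfp36 was 3.61-fold higher with LPS than in medium (log2 difference 1.85), and 2.86% of the measured genes had a greater difference. With LPS and LA it was 4.00-fold lower than with LPS alone and differed by -0.03 from LA alone. Neighbours in the order of its levels were 0.03, 0.12 and 1.85 log2 units apart, so only the last gap exceeded the spot error of 0.20.

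Zfp36l1 and Zfp36l2, its paralogs, bind the same kind of element and are known for roles in lymphocyte development and quiescence. Both were lower on the LPS array, opposite to Zfp36. Zfp36l2 (chr17:84183924-84187947) had a level of 4.32 in medium, 2.99 with LPS, 4.84 with LA alone and 4.77 with both agents. The LPS array was again the one apart, this time below the others. Zfp36l2 was 2.50-fold lower with LPS than in medium (log2 difference -1.32) and 3.44-fold higher with LPS and LA than with LPS (1.78). The LA array exceeded medium by 0.52, which is more than the spot error of 0.20 and less than 2-fold, and LPS with LA differed from LA by -0.06.

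Zfp36l1 (chr12:80107760-80113013) was measured by 2 probes. The brighter read 5.76 in medium, 5.12 with LPS, 5.94 with LA alone and 6.01 with both, so it too was lowest with LPS, by 0.64 against medium. The other had intensities of 1429, 1032, 1170 and 956 in the same order, and its level was lower with LPS than in medium by 0.43. Neither difference reached 2-fold. The probes disagreed over LPS with LA against LPS, where the brighter differed by 0.90 and the other by 0.14, the latter within the spot error of 0.20.

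Zc3h12a encodes Regnase-1, an endoribonuclease that cleaves stem-loops in Il6 and Il12b mRNAs and in its own. Its gene lies at chr4:125118414-125127881. The level was -0.63 in medium, 1.96 with LPS, -0.98 with LA alone and -0.48 with both, from intensities of 115, 674, 80.1 and 104. As for Zfp36, LPS without LA gave the only high value. Zc3h12a was 6.02-fold higher with LPS than in medium (log2 difference 2.59) and 5.42-fold lower with LPS and LA than with LPS (-2.44). It kept a difference of 0.50 between LPS with LA and LA, above the spot error of 0.21 and below 2-fold.

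Zc3h12c encodes Regnase-3, a paralog of Regnase-1 that also acts in myeloid cells. Its gene at chr9:52109569-52168730 varied more over the 4 arrays than any other member. The brighter probe read -1.31 in medium, 1.66 with LPS, -2.92 with LA alone and -2.68 with both. The LPS array was highest, and both arrays with LA lay below medium. Zc3h12c was 7.82-fold higher with LPS than in medium (log2 difference 2.97), 20.2-fold lower with LPS and LA than with LPS (-4.34) and 3.05-fold lower with LA than in medium (-1.61). After normexp background correction these log2 differences were 2.29, -2.83 and -0.69. Of the measured genes, 0.389% had a lower difference between LPS with LA and LPS.

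The other Zc3h12c probe read -1.44 in medium, 0.90 with LPS and -0.80 with LA, and was not well above background with both agents. It was 5.07-fold higher with LPS than in medium, the same direction as the brighter probe. Against the lowest signal that was well above background on the array with LPS and LA, its signal with LPS was at least 31.1-fold higher, with LA at least 9.56-fold higher and in medium at least 6.13-fold higher. The probes disagreed over LA: this one was 0.64 log2 units higher with LA than in medium, while the brighter was 1.61 lower. The intensities there were low, 65.7 in medium and 90.7 with LA for this probe and 72.1 and 20.9 for the brighter, so the value of Zc3h12c with LA alone rests on the choice of probe.

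Rc3h1 and Rc3h2 encode Roquin-1 and Roquin-2, which act redundantly on stem-loops of Icos, Tnfrsf4 and Tnf mRNAs. Rc3h1 (chr1:160906411-160974976) read 1.38 in medium, 1.62 with LPS, 1.18 with LA alone and 1.07 with both agents. The brighter probe of Rc3h2 (chr2:37368861-37424370) read -0.44, -0.03, -0.33 and -0.60 in that order. Neither gene reached 2-fold in any comparison by its brightest probe. The differences with LPS against medium were 0.24 for Rc3h1 and 0.41 for Rc3h2, and those of LPS with LA against LPS were -0.55 and -0.57. The other Rc3h2 probe read -0.40, -0.60, -1.42 and -1.03, so it was lower with LPS than in medium by 0.20, against the direction of the brighter, and lower with LA than in medium by 1.02.

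**Figure D1:**
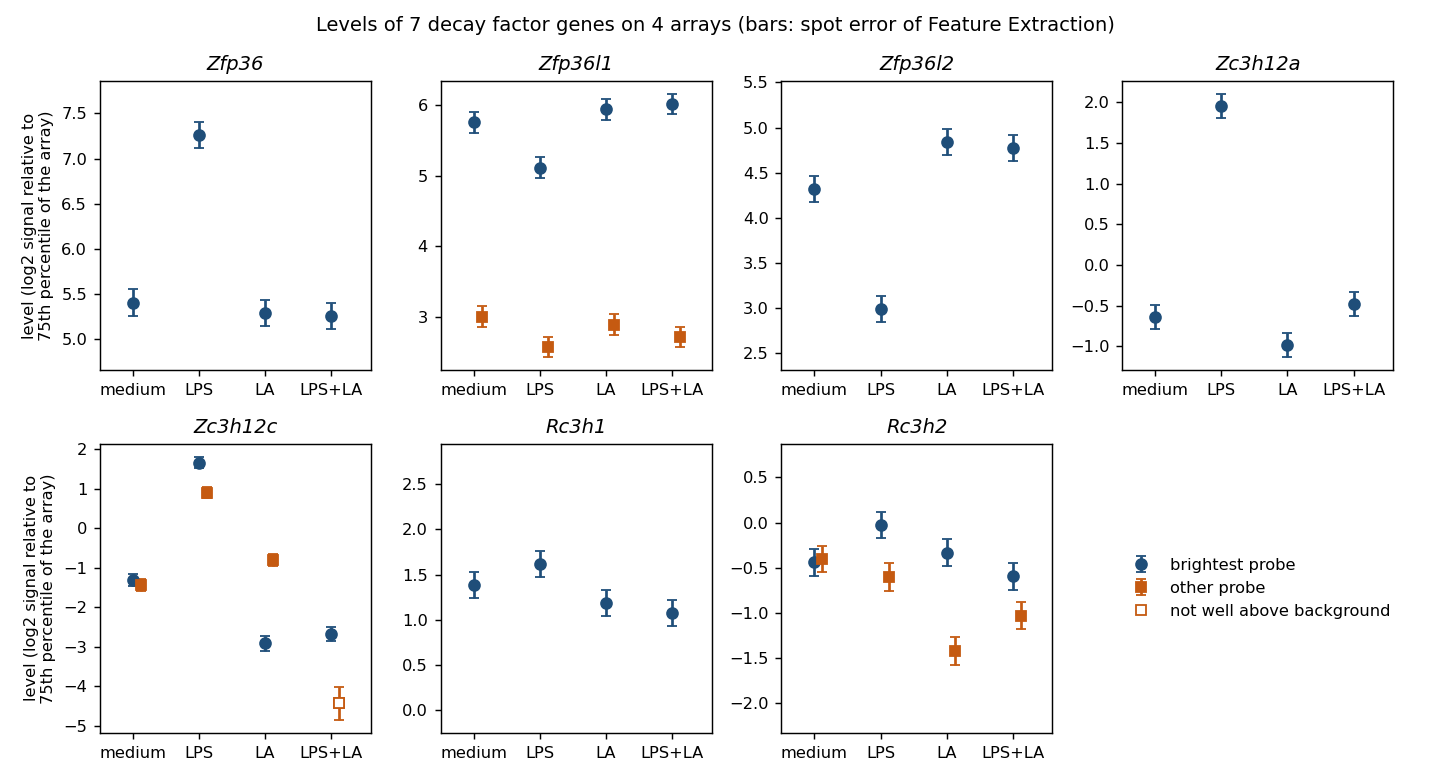
Level of every probe of the 7 genes on each of the 4 arrays, in log2 units above the array's 75th percentile. Circles are the brightest probe of a gene, squares its other probe, the open square a value not well above background, and bars the spot error. Zfp36, Zc3h12a and Zc3h12c were highest on the LPS array and Zfp36l2 was lowest on it, at 2.99.

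Counted together, 3 of the 7 members were at least 2-fold higher with LPS than in medium, where 8.14% of 13592 measured genes were. These were Zfp36, Zc3h12a and Zc3h12c. In the other direction, Zfp36l2 alone was at least 2-fold lower, against 7.5% of measured genes. The median difference over the members was 0.41 and over all measured genes 0.00, and the members ranged from -1.32 to 2.97. They did not form 1 group: the family of Zfp36 was split, both Regnase genes were more than 2-fold higher and both Roquin genes within 2-fold.

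With LA alone, 1 member, Zc3h12c, was at least 2-fold lower than in medium by its brighter probe, and none was 2-fold higher. The shares of all 14554 measured genes were 3.33% lower and 3.12% higher. The other 6 members differed by between -0.35 for Zc3h12a and 0.52 for Zfp36l2, and the median was -0.12.

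Between LPS with LA and LPS, the 4 members that were 2-fold apart between LPS and medium were again 2-fold apart, each in the opposite direction. Zfp36, Zc3h12a and Zc3h12c were lower, where 12.5% of 13631 measured genes were, and Zfp36l2 was higher, where 11.5% were. This comparison shares its LPS array with that of LPS against medium, so an error of that array enters both with opposite sign and the values are not independent. The members' median was -0.57. Zfp36l1, at 0.90, lay just inside the 2-fold limit.

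Setting both agents against LA alone, none of the 7 members was 2-fold apart by its brightest probe. The other Zc3h12c probe was, with a signal at least 9.56-fold higher with LA alone, and the mean of both Zc3h12c probes differed by -1.70. The differences of the brightest probes ran from -0.26 for Rc3h2 to 0.50 for Zc3h12a, with a median of -0.03. Among 14903 measured genes 0.906% were at least 2-fold higher and 1.5% at least 2-fold lower, so few genes of any kind differed between these arrays. Against medium, LPS with LA had 1 member at least 2-fold lower, Zc3h12c at -1.37, where 3.98% of 14519 measured genes were lower and 3% higher. The other 6 lay between -0.31 and 0.46.

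The LA difference in the presence of LPS minus that in its absence uses all 4 arrays. It was -1.88 for Zfp36, -2.09 for Zc3h12a, -2.73 for Zc3h12c and 1.26 for Zfp36l2, each past 2-fold. The share of all 13368 genes measured on all arrays that were past 2-fold was 9.7% on the lower side and 8.97% on the higher side. Zfp36l1 differed by 0.71, Rc3h1 by -0.35 and Rc3h2 by -0.68, with spot errors of 0.29 each. The other Zfp36l1 probe differed by 0.26, within its spot error of 0.29. The other Rc3h2 probe had the opposite sign, 0.59, and the mean of both was -0.04.

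**Figure D2:**
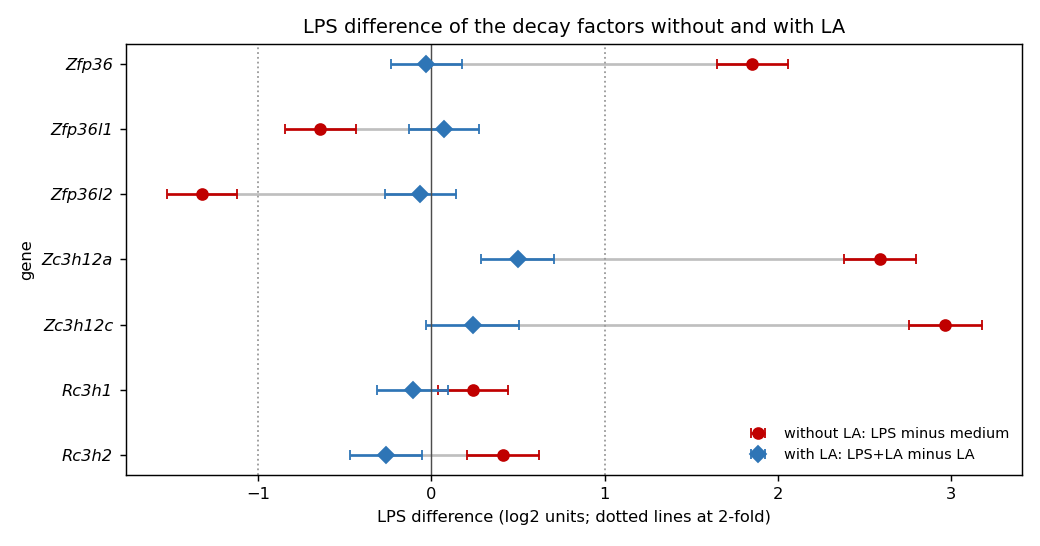
Difference of each member with LPS, in log2 units, without LA (circles, LPS minus medium) and with LA (diamonds, LPS with LA minus LA); bars are spot errors and dotted lines mark 2-fold. Without LA the values run from -1.32 to 2.97, and with LA the brightest probes of all 7 lie between -0.26 and 0.50.

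**Figure D3:**
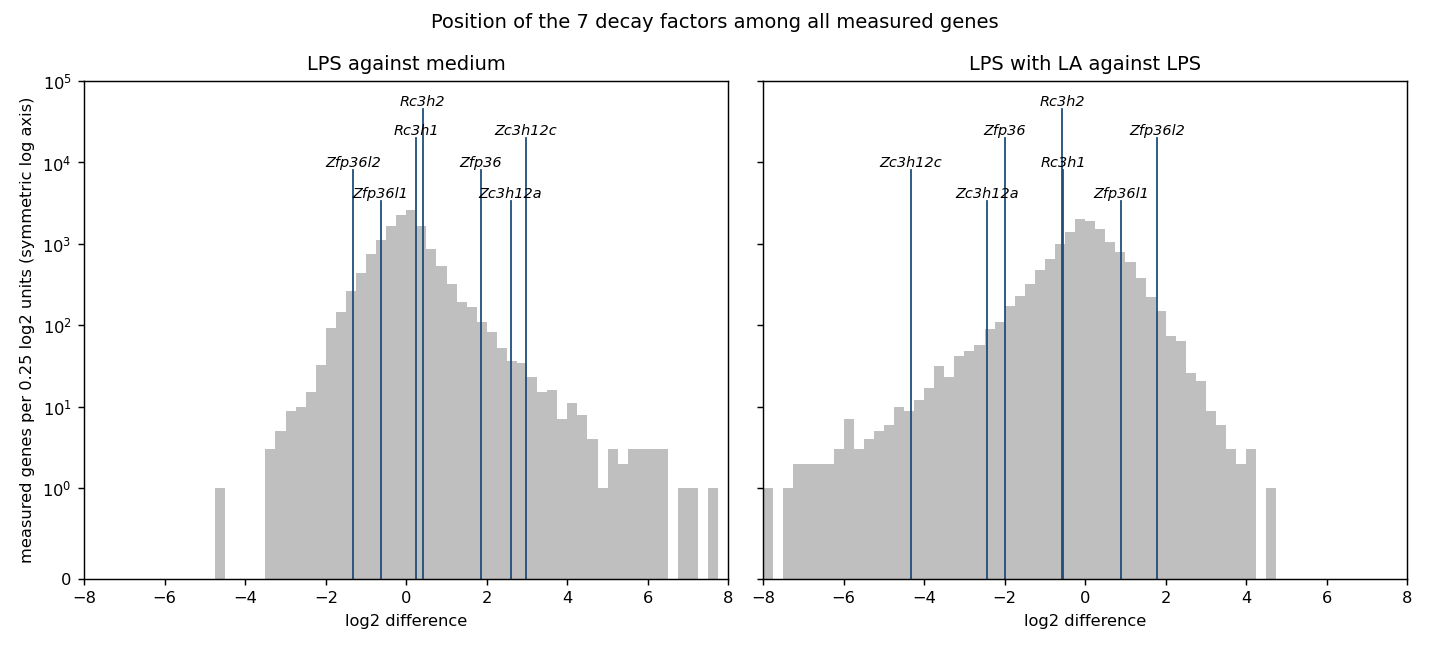
Number of measured genes per 0.25 log2 units of difference (grey bars, symmetric log axis) for LPS against medium and for LPS with LA against LPS, with the 7 members as labelled vertical lines whose heights only separate the labels. Zc3h12c lies far out on the higher side in the left panel, at 2.97, and on the lower side in the right panel, at -4.34.

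The values depend in part on how the arrays were put on a common scale. Scaling on bright probes alone (the 75th percentile over probes well above background on all arrays) moved the median of all genes by -0.19 for LPS against medium and by 0.28 for LPS with LA against LPS, and the authors' deposited table moved them by -0.24 and 0.43. Of the genes at least 2-fold apart between LPS and medium, 52.1% were higher with LPS here, 35.7% with bright-probe scaling, 68.1% after normexp background correction and 30.1% in the authors' deposited table. For LPS with LA against LPS it was 48.0%, 67.9%, 36.2% and 76.7% in the same order. Relative to each setting's own median of all genes, Zfp36 lay between 1.70 and 1.86 for LPS against medium, Zc3h12a between 2.07 and 2.59, Zc3h12c between 2.29 and 2.97 and Zfp36l2 between -1.49 and -1.32. A constant per array cancels in these relative values. Median scaling, bright-probe scaling and the authors' table therefore could not test them, and only quantile normalization and normexp could move them appreciably.

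Among genes well above background on all arrays, those whose 4 levels, centred on their own mean, came nearest to a member's were looked up for the 4 members that spanned at least 1 log2 unit. The measure is the root mean square difference over the 4 arrays among 13361 genes. Nearest to Zfp36 were Daxx (0.02 log2 units), Lcp2 (0.03) and Casp1 (0.04), encoding a death domain associated protein, a signalling adaptor and the inflammasome protease. Within 0.25 log2 units of Zfp36 lay 249 genes. Other probes of Daxx were up to 0.55 away, and another of Lcp2 was 0.252 away. Nearest to Zfp36l2 were Tbc1d22a (0.02), Capn15 (0.03) and Gm16845 (0.03), among 499 genes within 0.25. Another probe of Capn15 was 0.27 away.

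For Zc3h12a the nearest were Fam102b (0.06), A930015D03Rik (0.09) and Zfp975 (0.10), with 62 genes within 0.25. Zc3h12c had 11 genes within that distance, led by Nectin2 (0.14), an adhesion molecule, Clec4e (0.15), the C-type lectin Mincle, and Slc7a2 (0.16), a transporter of cationic amino acids. Another probe of Fam102b was 0.38 away from Zc3h12a, and another of Nectin2 was 1.10 away from Zc3h12c. Between members, by their brightest probes, Rc3h1 and Rc3h2 were the nearest pair at 0.11. Zfp36 and Zc3h12a followed at 0.36 and Zfp36l1 and Zfp36l2 at 0.39, and Zfp36l2 and Zc3h12c were the farthest apart at 2.56. Distances for the other probes of Zfp36l1, Zc3h12c and Rc3h2 were not computed. With 4 arrays such distances describe the arrays and do not link genes.

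The enzymes that these factors recruit were described from lists of their subunits. All 18 genes of the deadenylation list, the subunits of CCR4-NOT and PAN2-PAN3 and their adaptors, were measured with LPS against medium. By brightest probes none was 2-fold higher, against 8.14% of all measured genes, and 1 was lower, against 7.5%. This was Tob1 (-1.02), an antiproliferative adaptor of CCR4-NOT. Other probes of Parn (-1.52) and Cnot10 (-1.08) were also lower. The list's median was -0.18, and its highest members were Cnot4 (0.43) and Cnot6 (0.24). Between LPS with LA and LPS, Tob1 (1.61) and Cnot3 (1.13) were higher, where 11.5% of all measured genes were. Cnot7 (-1.16), a catalytic subunit, was lower, where 12.5% were, so these counts are not above the background. The other probes of Cnot3 and Cnot7 stayed within 2-fold there, with values down to 0.63 for Cnot3 and up to -0.54 for Cnot7. With LA alone Cnot7 was lower (-1.08) by its brightest probe, where 3.33% of all measured genes were. Another Cnot2 probe was also lower (-1.02).

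In the decapping and exonuclease list 20 of 23 genes were measured with LPS against medium, and 3 were higher and 2 lower, with a median of 0.05. Over all measured genes 8.14% were higher and 7.5% lower, so these counts lie near the background. Higher were Dcp2 (1.49), the decapping enzyme, its activator Dcp1a (1.29) and the 5′ to 3′ exonuclease Xrn1 (1.09, named after its value was seen because the count is small). The exosome subunits Exosc1 (-1.40) and Exosc7 (-1.08) were lower, and Lsm1, which binds mRNA ends before decapping, was not well above background with LPS and at least 2.21-fold higher in medium. Other probes lay within 2-fold for Exosc7 (-0.83) and Xrn1 (0.92), and another of Ttc37 was higher (1.11). Comparing both agents with LPS alone, Exosc1 (1.78) and Exosc5 (1.17) were higher, where 11.5% of all measured genes were. Xrn1 (-1.23) and Lsm14a (-1.02) were lower, where 12.5% were, so these counts too lie near the background. Another Dcp2 probe was lower (-2.42), and Lsm1 was at least 2.16-fold higher with both agents than with LPS alone. None of 21 measured genes was past 2-fold with LA alone by its brightest probe, but another Xrn1 probe was lower (-1.03). Edc3, not well above background in medium, was at least 2.06-fold higher with LA alone.

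Other proteins that bind cytokine mRNAs numbered 16, all measured. With LPS against medium N4bp1 (1.71), an RNase with a Regnase-like domain, and Arid5a (1.65), which protects Il6 mRNA from Regnase-1, were higher and none was lower. Over all measured genes 8.14% were higher and 7.5% lower. Levels of N4bp1 were -0.17 in medium, 1.54 with LPS, -0.02 with LA alone and -0.04 with both, so it too was high with LPS without LA alone. Set against LPS alone, both agents together had lower values of Fxr1 (-1.70), N4bp1 (-1.57) and Arid5a (-1.29, named after its value was seen). The shares of all measured genes there were 12.5% lower and 11.5% higher. Other probes of Hnrnpd (-1.41) and Zc3h12d (1.41) were also past 2-fold in that comparison. Arid5a was 1.05 higher with LA alone than in medium by its brightest probe and 0.21 by another. Another Pum2 probe was 1.01 higher there, where 3.12% of all measured genes were at least 2-fold higher.

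Kinases, phosphatases and proteases that act on the decay factors formed a list of 17 genes, 16 of them measured with LPS against medium. The median was 0.24, with 4 higher, where 8.14% of all measured genes were, and 1 lower, where 7.5% were. Malt1 (2.67), the paracaspase that cleaves Regnase-1 and Roquin, and Mapkapk2 (2.13), the kinase MK2 that phosphorylates tristetraprolin, were the highest. Dusp1 (1.85), a phosphatase of p38, and Fbxw11 (1.27), a ubiquitin ligase subunit, were the others, both named after their values were seen. Mapk14, which encodes p38 alpha upstream of MK2, was lower (-1.08), with another probe at -0.78.

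Malt1 levels were 3.40 in medium, 6.06 with LPS, 1.43 with LA alone and 1.28 with both, and those of Mapkapk2 were 1.81, 3.94, 1.05 and 1.40 in the same order. Both were highest with LPS, and both arrays with LA lay below medium. Between LPS with LA and LPS the differences were -4.78 for Malt1, -2.54 for Mapkapk2 and -1.82 for Fbxw11 (named after its value was seen, with another probe at -0.82), and 1.87 for Mapk14. The shares of all measured genes in that comparison were 12.5% lower and 11.5% higher. Other probes of Mapkapk3 (1.21) and Map2k3 (1.18) were also higher there. With LA alone Map2k6 (1.40), a kinase upstream of p38, and Dusp1 (1.18) were higher, where 3.12% of all measured genes were. Malt1 (-1.96) was lower, where 3.33% were. Map2k3 was 1.87 higher with LA alone by another probe and 0.29 by its brightest.

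The target lists hold mRNAs known to be bound or cleaved by these factors, and 4 genes stand in both (Tnf, Il6, Il1b and Ier3). Of 18 genes with AU-rich elements 14 were measured with LPS against medium. Of these, 11 were higher (against 8.14% of all measured genes) and none lower (against 7.5%), with a median of 4.44. The highest were Il1a (7.01) and Cxcl1 (6.34), and the lowest Fos (-0.72) and Vegfa (-0.13). Il10, Il23a and Lif were well above background with LPS and not in medium, and were at least 19.3-fold, 7.48-fold and 7.16-fold higher. Among 12 measured stem-loop targets 8 were higher and none lower, with a median of 2.25. They included Il6 (6.31), Il12b (5.86) and Zc3h12a itself, while Tnfrsf4 (-0.32) and Tfrc (-0.21), which Roquin or Regnase bind, stayed within 2-fold. Il2 was well above background with LPS alone, at least 2.88-fold higher than in medium.

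Between LPS with LA and LPS, 9 of 13 measured AU-rich targets were lower and 1 higher, with a median of -3.55, and 8 of 12 stem-loop targets were lower, with a median of -2.63. Over all measured genes 12.5% were lower and 11.5% higher. Another probe of Vegfa was also lower (-1.74), while its brightest stayed within 2-fold. Il1a, Cxcl1, Il10 and Il23a were not well above background with both agents and were at least 191-fold, 129-fold, 21.3-fold and 8.29-fold higher with LPS alone. The lowest values were -7.15 for Il12b, -6.78 for Il6 and -5.95 for Ptgs2, and the higher gene was Fos (3.77), an immediate early transcription factor. Fos levels were -1.24 in medium, -1.95 with LPS, 1.86 with LA alone and 1.82 with both, so it was high on both arrays with LA and on neither of the others. Against LA alone, LPS with LA had no measured gene of the 6 lists past 2-fold by its brightest probe. Other probes of Tnf (1.13) and Xrn1 (1.16) were past it, and Edc3, a decapping activator, was not well above background with both agents and at least 2.28-fold higher with LA alone. Of the members' differences in that comparison, the 0.50 of Zc3h12a compares with 0.60 for the brightest Tnf probe and 0.58 for Il6.

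With LA alone 3 AU-rich targets were higher than in medium, Fos (3.10), Ccl2 (2.88) and Dusp1 (1.18, named after its value was seen). The 3 that were lower were Tnf (-1.29), Il6 (-1.06) and Vegfa (-1.05, also named after its value was seen, with another probe at -0.83). Of the stem-loop targets 3 were lower, Tnf, Il6 and Il12b (-1.01, likewise named afterwards), and none was higher. Over all measured genes 3.12% were higher and 3.33% lower with LA alone.

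**Figure D4:**
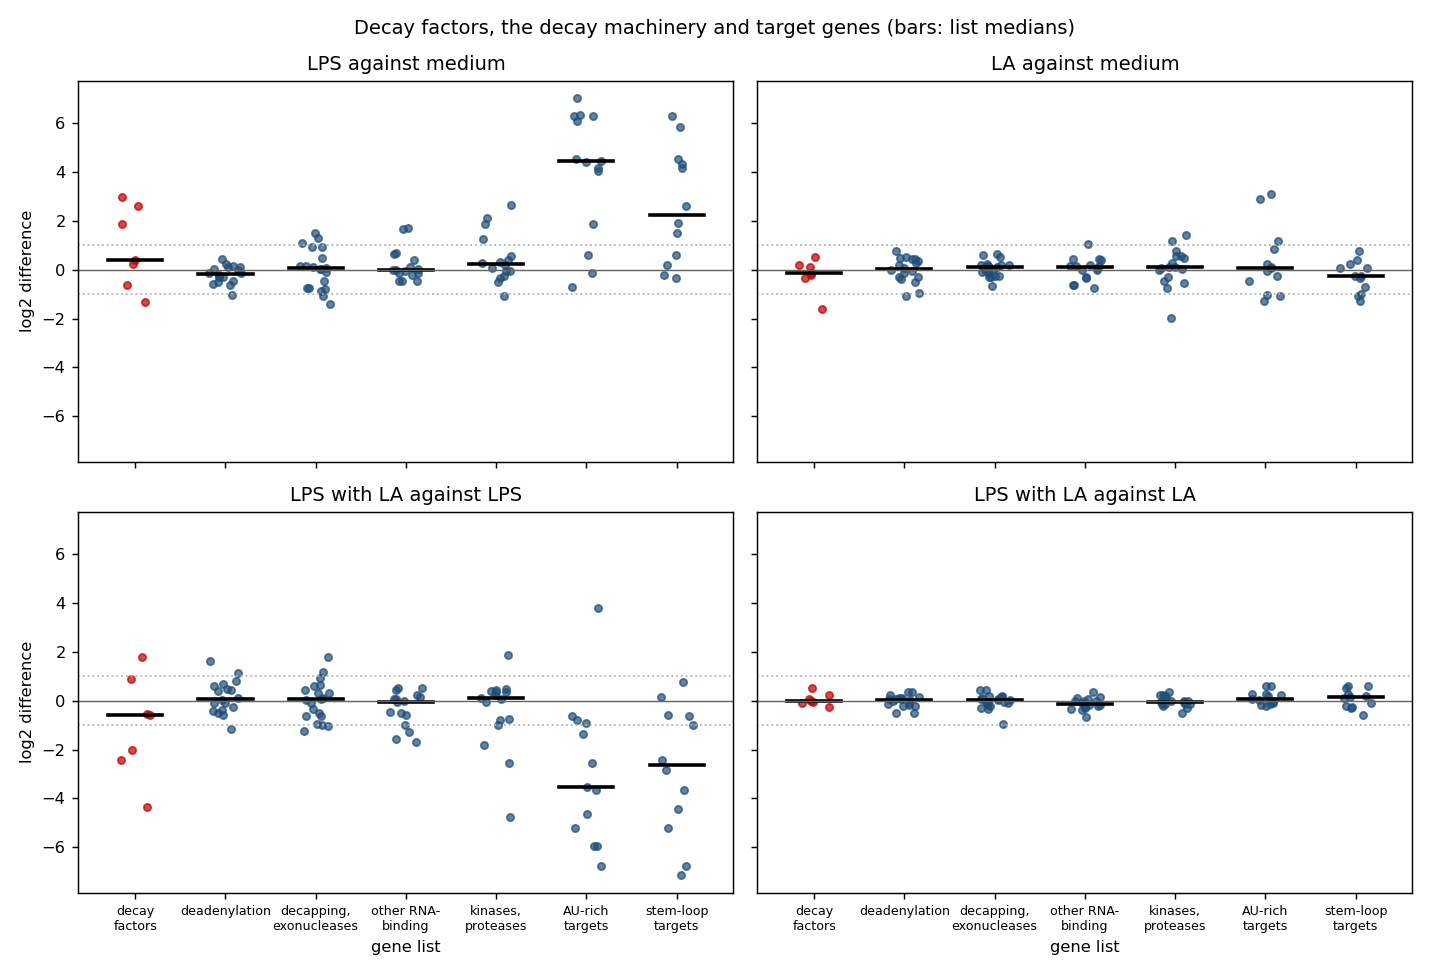
Log2 differences of the 7 decay factors (first column of each panel) and of the measured genes of the 6 lists in 4 comparisons; each point is a gene, thick bars are list medians and dotted lines mark 2-fold. The AU-rich targets have a median of 4.44 for LPS against medium and of -3.55 for LPS with LA against LPS, and no point, each the brightest probe of its gene, passes 2-fold for LPS with LA against LA.

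The labelled cell type was checked against its markers. All 14 dendritic cell markers were well above background on every array, and so were all 14 neutrophil and precursor markers, at least 12 of 13 macrophage and monocyte markers and at least 9 of 10 mast cell, basophil and eosinophil markers. Of 9 lymphocyte and NK cell markers 6 were above background on each array, and Ms4a1 and Ncr1 on none. The summed signal of the dendritic list, in units of each array's 75th percentile, was 298 in medium, 344 with LPS, 230 with LA alone and 218 with both. That of the macrophage list was 338, 353, 259 and 229, of the neutrophil list 710, 795, 916 and 947, of the mast cell list 56.4, 99.0, 104 and 111, and of the lymphocyte list 2.14, 2.18, 2.40 and 2.12. Such linear sums weigh the brightest genes most, such as Cd74 (level 6.88 in medium), Apoe (7.45) and S100a9 (7.96). By gene, the dendritic list's median difference was 0.21 with LPS against medium and -0.44 with LA against medium. With LA 1 of its 14 genes was at least 2-fold higher (3.12% of all measured genes) and 1 lower (3.33%). The macrophage list's medians were 0.00 and -0.49. The dendritic and macrophage sums were highest with LPS, as Zfp36, Zc3h12a and Zc3h12c were, and their part in the members' differences was not tested. In bulk RNA fewer cells of a type and less RNA per cell cannot be told apart.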

How the data were processed

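RNA from 4 BMDC samples was hybridised to 1 single-colour (Cy3) Agilent array each, so precision is limited by the number of arrays. The deposited intensities are the processed, background-subtracted linear signals of Feature Extraction 12.0.3.1 (design build mm9), per the file headers (version 11.5.1.1 in the submitters' processing notes). The authors' deposited table holds the same intensities times 1 factor per array (6.67, 5.82, 8.38 and 9.30 for medium, LPS, LA and LPS with LA) for 31529 spots, with column medians of 1038, 873, 1164 and 1189. It is linear, not log2 transformed, and was not centred per gene. Levels are log2(intensity) minus each array's 75th percentile over spots that are not controls (179, 174, 158 and 146). Outlier spots were left out, and none was a member's. Member probes had 1 spot per array.

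The deposited files name transcripts, not genes: of 56605 probes 33767 matched 1 symbol of the RefSeq table (GRCm38.p6) and 22838 none. No test was possible. All 7 members were named, list genes from the 2 highest and 2 lowest measured per comparison unless the text says otherwise, and the 3 genes nearest to each varying member. The members and lists were chosen with earlier results of these data known. A bound sets the brighter level against the lowest level that was well above background on the dimmer array, or the probe's own level there if that was higher. Scripts used Python 3.11.15, pandas 2.3.3, numpy 2.4.6 and, for normexp (offset 50, on median signals), limma 3.58.1 in R 4.3.3, and were tested on simulated data. Quantile normalization was done in Python. The 8 alternatives tried were other scalings, background corrections, filters and probe rules and the authors' table.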

Additional observations from a re-analysis of the deposited data

Results flagged for a closer look

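By their brightest probes, the LPS difference of 4 members had opposite signs without and with LA. It was 1.85 without and -0.030 with LA for Zfp36, -0.64 and 0.073 for Zfp36l1, 0.24 and -0.11 for Rc3h1, and 0.41 and -0.26 for Rc3h2. The LA difference of Rc3h2 was 0.11 without LPS and -0.57 with it. Other probes differed: that of Zfp36l1 had LPS differences of -0.43 and -0.17, and that of Rc3h2 had LPS differences of -0.20 and 0.39 and LA differences of -1.02 and -0.43, so the signs for these 2 genes depend on the choice of probe. With 1 array per condition the difference between these pairs was not tested, and the values with LA of Zfp36, Zfp36l1 and Rc3h1, as well as that of Rc3h2 without LPS, were smaller than their spot errors of about 0.20.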

How the results depend on the processing

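Each of the 42 member differences (7 genes, 6 comparisons) was recomputed under 8 alternatives. The side of the 2-fold limit was the same for all 42 under median scaling, without a filter on dim probes and with genes above background on all arrays, for 41 with bright-probe scaling and in the authors' deposited table, and for 40 under quantile normalization, normexp and averaging of a gene's probes. The brightest probe of every member was well above background on all arrays, so neither filter setting could move a member value. No member past 2-fold changed direction. The count of members lower with LA than in medium fell from 1 to 0 under normexp and with averaged probes. The average of the Zc3h12c probes (-1.61 and 0.64) was -0.48. The share of all measured genes that were lower went from 3.33% to 1.17% under normexp and 3.3% with averaged probes. For LPS with LA against medium the count of lower members fell from 1 to 0 under normexp, and the share of all genes from 3.98% to 1.52%. For LPS with LA against LPS the count of higher members rose from 1 to 2 with bright-probe scaling, under quantile normalization and in the authors' deposited table, through Zfp36l1, while the share of all measured genes that were higher went from 11.5% to 18.2%, 12.6% and 22.7%. The count of higher members also rose from 1 to 2 for the difference of differences under quantile normalization. There the share of all genes that were higher went from 8.97% to 9.46%. For LPS with LA against LA the count of lower members rose from 0 to 1 with averaged probes. There the share of all measured genes that were lower went from 1.5% to 1.68%. Zc3h12c came to -1.70, the average of 0.24 and -3.63. The -3.63 is from its second probe, which was well above background with LA alone and not with both agents. For LPS with LA against LPS, bright-probe scaling moved every member by the same 0.28 log2 units and the authors' deposited table by the same 0.42. The cause of the changes under quantile normalization and normexp was not tested. Among all genes at least 2-fold apart, the percentage that were higher moved with LA against medium from 48.4% to 59.5% (bright probes), 29.5% (normexp) and 65.7% (authors' deposited table), with LPS and LA against medium from 43.0% to 55.2%, 26.1% and 65.6%, with LPS and LA against LA from 37.7% to 25.8% under normexp, and for the difference of differences from 48.0% to 65.6%, 37.4% and 70.4%. No paired analysis was possible because each condition has 1 array, and no replicate could be left out. Signal over background limits dim values: replicated dim probes had a median SD between spots of 0.40 to 0.50 log2 units.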
